A study of Drosophila melanogaster with 6 samples.

Results

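The genes of the mitochondrial import machinery were followed in the indirect flight muscles of adult Drosophila melanogaster. They are the genes of the outer membrane translocase TOM (Tom20, tomboy20, Tom70, Tom40 and Tom7), of the small TIM chaperones of the intermembrane space (Tim8, Tim9a, Tim10 and Tim13) and of the inner membrane channel Tim23. They were chosen by their symbols, and all 10 were found among the 17494 genes of the count table. The study knocked down M1BP, a transcription factor that binds the Motif-1 promoter element, in muscle, and here the adult samples show how the RNA of the import genes differed between knockdown and wild type muscle. M1BP RNAi samples came from a cross of Mef2-GAL4 with UAS-M1BP RNAi (line #1, the weaker of the 2 lines the study used), and WT samples from a cross of Mef2-GAL4 with w1888, so that both groups carry the driver. Each group has 3 samples, each of poly(A) RNA from muscles dissected by hand from 30 females aged 2 days. Mef2-GAL4 drives expression in all stages of myogenesis and can also do so in some neurons, and the Mef2 gene is active in the fat body too. The study addressed this with knockdowns by a neuronal driver, a fat body driver and another myoblast driver, Him-GAL4, which are not analysed here. By the study's methods the replicates are independent RNA preparations, whereas the labels give only a replicate number.

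Nearly all mitochondrial proteins are made in the cytosol and have to cross the outer membrane through the TOM complex. Tom20 and Tom70 are receptors that bind the precursors, Tom40 is the barrel-shaped channel, and Tom7 is a small subunit that shapes the assembly of the complex in yeast. Behind the channel, the small TIM proteins escort hydrophobic precursors across the intermembrane space, and precursors with a cleavable targeting signal pass the inner membrane through the TIM23 complex. Flight muscle is packed with mitochondria, and the import route serves all of their nuclear-encoded respiratory subunits.

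M1BP RNAi libraries held 37908823 to 64768186 counts in total, and WT libraries 45132859 to 64871987. Transcripts of mitochondrial DNA took 54.0% to 59.4% of the counts in M1BP RNAi samples, against 71.5% to 76.3% in WT samples. M1BP (FBgn0037621) had 48, 50 and 85 counts in M1BP RNAi samples 1 to 3, against 87, 93 and 126 counts in WT samples 1 to 3, and fell, at a log2 fold change of -1.36 and a standard error of 0.16 (adjusted p = 3.36e-04, from the quasi-likelihood test of edgeR, adjusted by Benjamini-Hochberg over all genes tested). With any 1 sample left out, or with libraries scaled by their total counts (log2 fold change -0.61, adjusted p = 0.0136), this fall no longer passed the threshold of 0.001. Marker levels are given as CPM, here a library's counts divided by its TMM-scaled size and brought to a common scale. The TMM-scaled size is the library size times its TMM factor, the scaling factor of edgeR. All 12 flight muscle markers were detected, with a summed level of 32722 to 45477 CPM in M1BP RNAi samples and 25843 to 28008 CPM in WT samples. The single markers differed in direction. By edgeR, Act88F and Mhc, which make up much of the sum in M1BP RNAi samples, were called higher (log2 fold changes 1.83 and 1.63). Mf (-3.35), a myofilament protein gene and the largest single marker in WT samples, and salm (-1.48), the selector of fibrillar flight muscle, were called lower. Summed fat body markers were at 256 to 569 CPM in M1BP RNAi samples and 979 to 1646 CPM in WT samples. Blood cell markers (30.0 to 42.2 CPM, against 55.7 to 67.9 CPM in WT), neuron markers (32.7 to 45.2 CPM, against 66.9 to 91.7 CPM in WT) and tracheal markers (5.29 to 9.67 CPM, against 12.4 to 12.8 CPM in WT) were also lower in every M1BP RNAi sample with this scaling. The TMM factors were 1.23 to 1.34 in M1BP RNAi samples and 0.679 to 0.855 in WT samples. Without these factors the blood cell, neuron and tracheal ranges would overlap between the groups. The part of these cells in the results below was not tested. At an unadjusted p under 0.05 the lower genes were 4 of 6 tested fat body markers, 5 of 5 blood cell markers, 6 of 6 neuron markers and 2 of 4 tracheal markers. At the adjusted threshold of 0.001, edgeR called 1 of them lower, tracheal trh, whereas DESeq2 called 4 fat body, 1 blood cell, 4 neuron and 1 tracheal marker lower. The larval serum protein gene Lsp2 of the fat body list went the other way, at 0.606 to 5.97 CPM in M1BP RNAi samples and 0.0360 to 0.457 CPM in WT samples (log2 fold change 3.42, edgeR adjusted p = 0.0363). Gut markers overlapped between the groups (174 to 442 CPM in M1BP RNAi samples, 88.1 to 301 CPM in WT samples). In the male germline list 8 of 13 markers had 0 counts in all 6 samples, and in the ovary list the eggshell genes Cp36 and Cp38 did. Summed ovary markers were at 0 to 3.24 CPM in M1BP RNAi samples and 0.0721 to 0.152 CPM in WT samples. The gene osk made up most of the highest value, at 2.42 CPM in M1BP RNAi sample 1, against 0 and 0.0349 CPM in samples 2 and 3. It had 0 CPM in every WT sample, and none of the ovary markers was tested.

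Of the 10 import genes, 8 passed the filter on low counts, and the other two, tomboy20 and Tim13, had 0 counts in every sample. Tom7 alone passed the adjusted threshold of 0.001 and was higher upon M1BP RNAi. This is 1 of 8 genes (12.5%), near the 11.0% of all 9276 tested genes that were called higher. None of the 8 was called lower by edgeR or by DESeq2, where 6.58% of all genes tested were called lower by edgeR, and 0 of the 8 had an unadjusted p under 0.05 in that direction. The share of all genes at that unadjusted cut was not computed. At an adjusted p of at most 0.05, 0 of the 8 and 2508 of all 9276 tested genes were lower. At the looser adjusted threshold of 0.05, 5 of the 8 genes were higher (Tom7, Tom20, Tim9a, Tom70 and Tom40), against 29.1% of all genes. Counting by samples, all 3 M1BP RNAi samples lay above all 3 WT samples for 6 of the 8 genes, against 33.1% of all genes. They lay below all WT samples for 1 gene, Tim23 (a direction that flipped when libraries were scaled by total counts), where 31.1% of all genes did so. The last gene, Tim10, had overlapping groups. The median log2 fold change was 0.75 over the 8 import genes and 0.02 over all genes tested. In RNA from whole muscle, fewer cells of a type and less RNA per cell cannot be told apart.

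**Figure D1:**
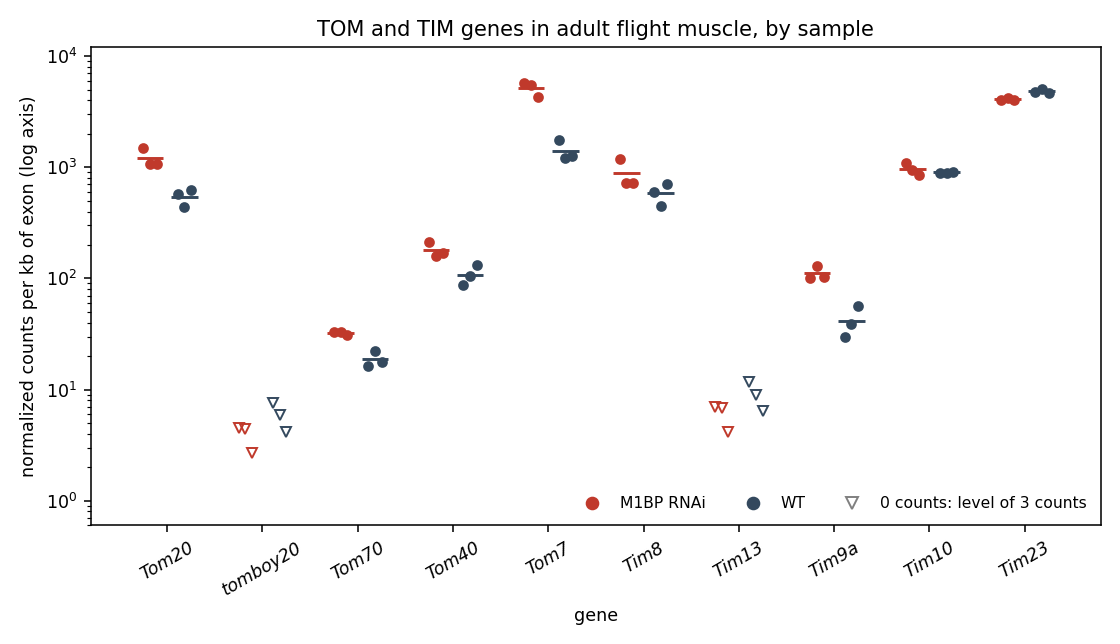
Normalized counts per kilobase of exon (log axis) of the 10 TOM and TIM genes in each of the 3 M1BP RNAi samples (red, left) and the 3 WT samples (dark, right). Points are samples, bars are group means, and open triangles give the level that 3 counts would have for tomboy20 and Tim13, which had 0 counts. Tom7 had the widest gap between the groups, at 5191 in M1BP RNAi and 1410 in WT on average, whereas Tim23 lay slightly lower in M1BP RNAi with this TMM scaling, a direction that total library size turned round.

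Tom7 (FBgn0033357) lies on chromosome 2R, 8951595 to 8952242, plus strand (dm6, the build used for every position here). It had 3016, 2954 and 3806 counts in M1BP RNAi samples 1 to 3, against 560, 488 and 713 counts in WT samples 1 to 3. Counts were then divided by TMM-scaled library sizes and multiplied by their mean, which gave normalized counts of 3109, 2958 and 2326 in M1BP RNAi samples and 959, 648 and 674 in WT samples. The lowest M1BP RNAi sample was thus well above the highest WT sample. Tom7 averaged 2798 ± 415 normalized counts in M1BP RNAi and 760.2 ± 172 in WT (SD, n = 3 each), and the log2 fold change was 1.88 (standard error 0.20, edgeR adjusted p = 1.94e-04), a 3.68-fold rise. The rise held its direction with each sample left out in turn, with log2 fold changes of 1.79 to 2.10. It stayed under the threshold in 4 of these 6 fits and missed it without M1BP RNAi sample 2 (adjusted p = 0.00123) and without WT sample 2 (adjusted p = 0.00122).

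The receptor Tom20 (FBgn0036928, chromosome 3L, 20000644 to 20002446, plus strand), which recognizes targeting sequences at the N terminus of precursors, came next to the threshold. Its normalized counts were 1508, 1083 and 1072 in M1BP RNAi samples, against 575, 442 and 633 in WT samples. All M1BP RNAi samples were above all WT samples, and sample 1 was the highest of the knockdown. The means were 1221 ± 249 in M1BP RNAi and 549.9 ± 97.8 in WT (SD, n = 3 each). The log2 fold change was 1.15 (standard error 0.19) and the edgeR adjusted p was 0.00169, so Tom20 was not called at 0.001, whereas DESeq2's Wald test gave an adjusted p of 2.21e-07. Of its 1008 exon bases, 29 lie opposite an exon of Gabat, and whether reads were counted by strand is not given in the sources used here.

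Tom70 (FBgn0032397, chromosome 2L, 12035984 to 12038511, minus strand), the receptor for carrier proteins with internal signals, was the least abundant of the detected genes per length of exon. It had 78, 80 and 124 counts in M1BP RNAi samples, against 23, 41 and 46 counts in WT samples. Normalized, these were 80.4, 80.1 and 75.8 in M1BP RNAi samples and 39.4, 54.4 and 43.5 in WT samples. The knockdown samples were nearly level and all above WT. The log2 fold change of 0.78 (standard error 0.19, edgeR adjusted p = 0.00912) did not pass the threshold. Of its 2438 exon bases, 148 lie opposite an exon of CG18788, which had 0 counts in every library.

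The channel gene Tom40 (FBgn0016041, chromosome X, 7736893 to 7739978, plus strand) had 504, 383 and 402 normalized counts in M1BP RNAi samples, against 209, 254 and 315 in WT samples. The groups did not overlap, but WT sample 3 came close to the lower M1BP RNAi samples. Tom40 was not called (log2 fold change 0.72, standard error 0.18, edgeR adjusted p = 0.0106). Among the other 9275 tested genes, those whose log2 levels ran closest to Tom40 over the 6 samples, each gene centred on its own mean, were Roe1, CG2911 and CG31229. Their root mean square differences from it were 0.056, 0.062 and 0.077 on the log2 scale. Roe1, the exchange factor for the Hsp70 of the import motor, and CG31229 belong to the import genes listed by the study as well.

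The germline paralog tomboy20 (FBgn0037828, chromosome 3R, 10735277 to 10735957, minus strand) had 0 counts in all 6 libraries. A limit of 3 counts per library corresponds to 4.63e-06% to 7.91e-06% of the counts in M1BP RNAi samples and 4.62e-06% to 6.65e-06% in WT samples, which covers counting error only, since PCR copies were not marked. Per kilobase of exon, Tom20 was at least 243-fold higher than tomboy20 at this limit in each M1BP RNAi sample and at least 75.0-fold higher in each WT sample. The other import paralogs of the male germline were near 0 as well. ttm3 had 0 counts in all samples and ttm2 had 1 count, in M1BP RNAi sample 2. tomboy40, the paralog of Tom40, had 6, 5 and 18 counts in M1BP RNAi samples, against 14, 6 and 16 counts in WT samples, and was not called (log2 fold change -0.97, standard error 0.49, edgeR adjusted p = 0.128).

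The small TIM chaperones had fold changes of different size. Tim9a (FBgn0030480, chromosome X, 13385210 to 13385893, plus strand) and Tim10 (FBgn0027360, chromosome 2R, 21690215 to 21691139, minus strand) form a ring-shaped complex that carries hydrophobic precursors, as known from their yeast and human counterparts. Tim9a had 52.6, 66.1 and 53.2 normalized counts in M1BP RNAi samples, against 15.4, 19.9 and 29.3 in WT samples. All M1BP RNAi samples were above WT, from raw counts of only 51 to 87 in M1BP RNAi and 9 to 31 in WT. The log2 fold change was 1.36 (standard error 0.28) with an edgeR adjusted p of 0.00434, so Tim9a was not called.

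Tim10 had 838, 725 and 646 normalized counts in M1BP RNAi samples, against 679.5, 681 and 693 in WT samples. The WT samples were almost equal and lay within the range of the knockdown samples. Tim10 was not called (log2 fold change 0.10, standard error 0.12, edgeR adjusted p = 0.501). This value belongs to 2 genes at once, because 691 of the 762 exon bases of Tim10 (90.7%) are shared on the same strand with CG42497, which had the same counts in every sample. A further 39 bases lie opposite CG10307.

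Tim8 (FBgn0027359, chromosome X, 11368445 to 11369283, plus strand) and Tim13 (FBgn0036204, chromosome 3L, 11774060 to 11774501, minus strand) are partners in a second small TIM complex in yeast and human. Tim8 had 906, 553 and 550.1 normalized counts in M1BP RNAi samples, against 454, 338 and 539 in WT samples. All M1BP RNAi samples were above WT, but 2 of them only just above WT sample 3, with sample 1 far above the rest. The log2 fold change was 0.59 (standard error 0.24, edgeR adjusted p = 0.0730), and 0.32 without M1BP RNAi sample 1. The gene annotated as Tim13 had 0 counts in all 6 libraries. Per kilobase, Tim8 was at least 107-fold above the 3-count limit for Tim13 in each M1BP RNAi sample and at least 49.4-fold above it in each WT sample. These zeros concern the annotated Tim13 gene and do not show that the muscle lacks a partner of Tim8. CG34132, another gene of the study's import class, picked out after its values were seen, had 777, 368 and 391 normalized counts in M1BP RNAi samples, against 168, 143 and 123 in WT samples. Its groups lay apart, with a log2 fold change of 1.83 and an adjusted p of 0.00179 by edgeR and 3.00e-08 by DESeq2, and whether it takes the part of Tim13 was not tested.

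Tim23 (FBgn0267976, chromosome 2L, 23312465 to 23313578, minus strand) encodes the channel-forming subunit of the inner membrane translocase. It had 3622, 3751 and 3582 normalized counts in M1BP RNAi samples, against 4264, 4497 and 4164 in WT samples. The samples within each group were close together, with a coefficient of variation of 2.43% in M1BP RNAi and 3.96% in WT, and all M1BP RNAi samples lay below all WT samples. The log2 fold change was -0.24 (standard error 0.11) and the edgeR adjusted p was 0.0939, so Tim23 was not called. This direction depended on the scaling: with total library sizes, which include the mitochondrial transcripts, the log2 fold change of Tim23 was 0.51 (adjusted p = 0.0120). The genes with the pattern most like that of Tim23 were CG1815, p120ctn and Rb97D, at root mean square differences of 0.032, 0.037 and 0.041 on the log2 scale over the 6 samples.

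**Figure D2:**
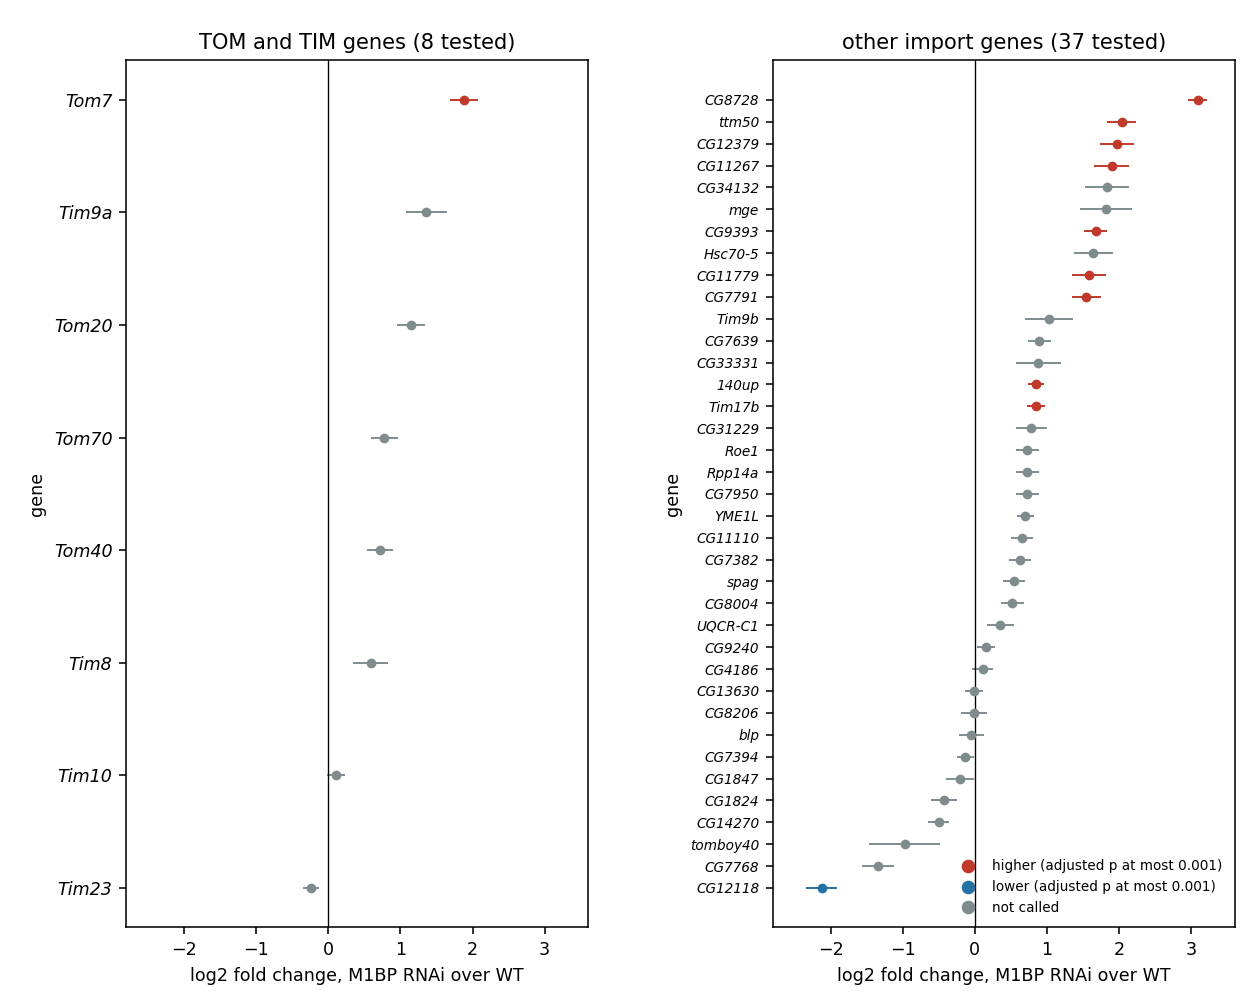
Log2 fold change of M1BP RNAi over WT (x axis) with its standard error for the 8 tested TOM and TIM genes (left panel) and the 37 tested other import genes (right panel), 1 gene per row. Red points were called higher and blue points lower at an adjusted p of at most 0.001, and grey points were not called. Tom7 is the only called gene on the left, and CG8728 leads the right panel at 3.09.

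Because levels between genes can be compared only per length, normalized counts were divided by exon length in kilobases. In M1BP RNAi the order of the mean levels per kilobase was Tom7 (5191), Tim23 (4089), Tom20 (1211), Tim10 (966), Tim8 (879.9), Tom40 (179), Tim9a (111) and Tom70 (32.3). In WT it was Tim23 (4825), Tom7 (1410), Tim10 (898), Tim8 (583), Tom20 (546), Tom40 (108), Tim9a (41.7) and Tom70 (18.8). Tom7 and Tim23 thus held opposite places at the top in the 2 groups, with sample ranges that did not overlap in either. Neighbours whose ranges overlapped were Tom20 with Tim10 and Tim10 with Tim8 in M1BP RNAi, and Tim8 with Tom20 in WT. In both groups the channel gene Tom40 was far less abundant than the small subunit Tom7, and Tom70 was the lowest detected gene.

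The levels of all members summed to 13955, 12762 and 11263 per kilobase in M1BP RNAi samples, against 8744, 8181 and 8366 in WT samples. Tom7 made up 41.3%, 43.0% and 38.3% of this sum in M1BP RNAi samples, against 20.3%, 14.7% and 15.0% in WT samples. Tim23 made up 29.1%, 32.9% and 35.6% in M1BP RNAi samples, against 54.6%, 61.6% and 55.7% in WT samples. These shares do not depend on how the libraries were scaled, and neither gene's shares overlapped between the groups. Tim10 had 7.46% to 7.88% in M1BP RNAi and 10.2% to 10.9% in WT, and Tom20 had 8.42% to 10.7% in M1BP RNAi and 5.36% to 7.50% in WT.

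**Figure D3:**
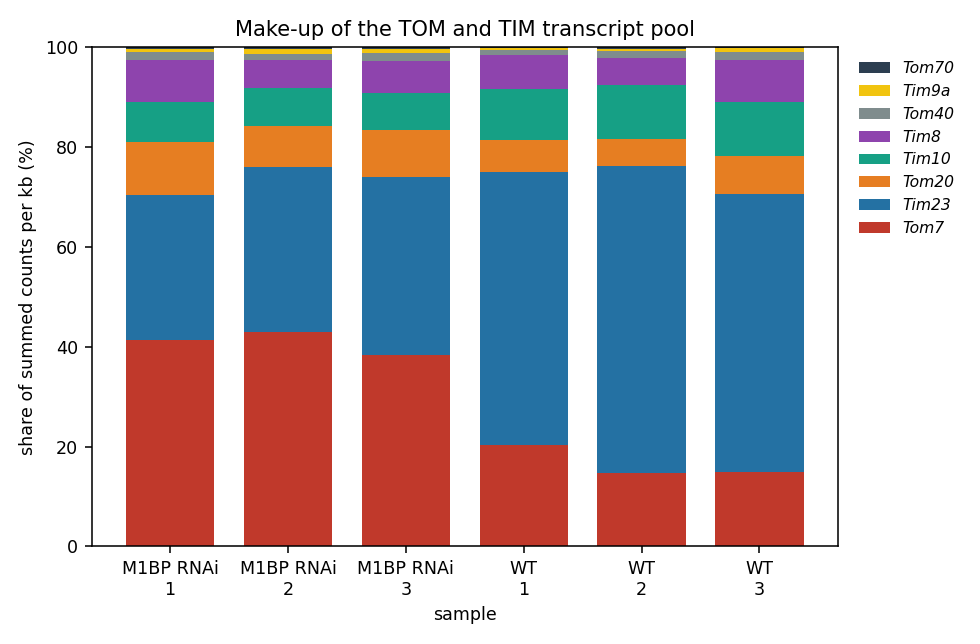
Share (%) of each TOM or TIM gene in the summed counts per kilobase of all of them, stacked for each of the 3 M1BP RNAi samples (left) and 3 WT samples (right). Tom7 takes 38.3% to 43.0% in M1BP RNAi and 14.7% to 20.3% in WT, and Tim23 takes 29.1% to 35.6% in M1BP RNAi and 54.6% to 61.6% in WT, while Tom40, Tim9a and Tom70 are thin bands at the top.

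Ratios of functional partners within a library were compared as a measure that no scaling can move. Of 7 pairs, 5 could be computed, since tomboy20 and Tim13 were at 0. With 3 samples against 3, the exact two-sided permutation test cannot give a p below 0.1, so no pair can pass 0.05. For Tom7 over Tom40 the ratio of counts per kilobase was 27.4, 34.4 and 25.7 in M1BP RNAi samples, against 20.4, 11.4 and 9.51 in WT samples. The groups did not overlap, and the mean log2 ratio differed by 1.15 (exact permutation p = 0.1, adjusted over the 5 pairs 0.167). For Tim23 over Tom40 it was 19.3, 26.3 and 23.9 in M1BP RNAi samples, against 54.8, 47.6 and 35.5 in WT samples. All M1BP RNAi samples were lower, by a mean log2 difference of -0.98 (exact permutation p = 0.1, adjusted 0.167).

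Tim9a over Tim10 was 0.0926, 0.135 and 0.122 in M1BP RNAi samples, against 0.0335, 0.0432 and 0.0625 in WT samples, where the reads of Tim10 include those of CG42497. Group means differed by 1.36 on the log2 scale without overlap (exact permutation p = 0.1, adjusted 0.167). The receptor ratios overlapped between the groups. Tom20 over Tom40 differed by 0.41 on the log2 scale (exact permutation p = 0.2, adjusted 0.25) and Tom70 over Tom40 by 0.06 (exact permutation p = 0.9).

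**Figure D4:**
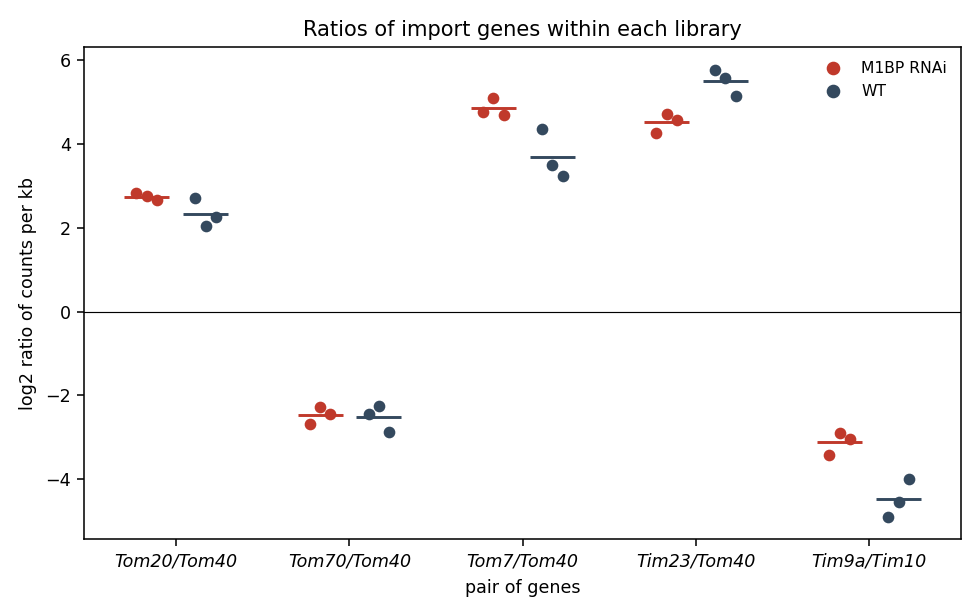
Log2 ratio of counts per kilobase for 5 pairs of import genes within each library, for M1BP RNAi samples (red, left) and WT samples (dark, right). Points are samples and bars are group means. The groups are apart for Tom7/Tom40, Tim23/Tom40 and Tim9a/Tim10, with differences of 1.15, -0.98 and 1.36, and overlap for Tom20/Tom40 and Tom70/Tom40.

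The scaling of the libraries set the level of all fold changes. With total library size in place of TMM, the median log2 fold change of all genes moved by 0.75, and the median of the 8 import genes was then 1.48. A scaling shifts the fold changes of all genes nearly equally, so the places of genes relative to each other could hardly change. Relative to the median of all genes, 7 of the 8 genes were above and Tim23 below under each of 5 settings. These were scalings of the edgeR fit, and DESeq2, which also differs in its model but was fitted to the same counts. Tom7 had the highest fold change of the members under each of the 5 settings, and neither result is separate support.

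**Figure D5:**
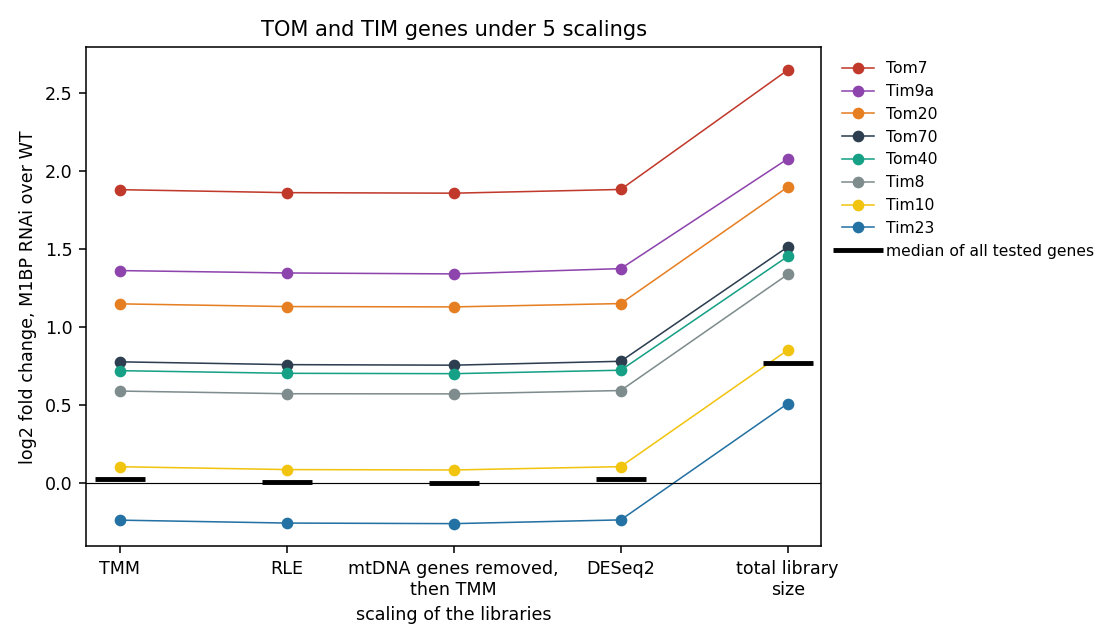
Log2 fold change of M1BP RNAi over WT for the 8 tested TOM and TIM genes (coloured points, lines only join a gene) under 5 settings. These are scalings of the edgeR fit, and DESeq2, which also differs in its model. A black bar gives the median of all tested genes. Total library size moves the median of all genes by 0.75, and Tim23 changes sign there but remains below that median.

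The rest of the import pathway was taken from the study's curated list of mitochondrial genes, as the 51 other genes of its class Import & Sorting. Of these, 37 were tested, 11 had 0 counts in all samples, and 9 were called higher and 1 lower. The share called higher was 24.3%, beside 11.0% of all genes tested, and the median log2 fold change was 0.73. Rpp14a and CG7950, neither of them called, had the same counts in every sample, so the same values enter the list under both names. Their log2 fold change is also the list's median. The number called higher was 3 without M1BP RNAi sample 2 or 3 or without WT sample 1 or 2, and CG12118, the gene called lower, was lost without M1BP RNAi sample 2 or WT sample 1. The highest fold change was that of CG8728, named alpha-MPP in the reference annotation, a subunit of the peptidase that removes targeting signals in the matrix. CG8728 had 1036, 984 and 1152 normalized counts in M1BP RNAi samples, against 130.1, 111 and 131 in WT samples, and its log2 fold change was 3.09 (standard error 0.13, edgeR adjusted p = 5.97e-06). CG7791, named MIP after the peptidase that trims some precursors further, rose by 1.54 on the log2 scale (standard error 0.20, edgeR adjusted p = 5.34e-04).

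Partners of Tim23 were among the called genes. ttm50, the counterpart of the TIM23 receptor Tim50, had 852, 667 and 691 normalized counts in M1BP RNAi samples, against 154, 150.0 and 232 in WT samples, and its log2 fold change was 2.03 (standard error 0.20, edgeR adjusted p = 1.43e-04). Tim17b, the partner subunit of Tim23 in the inner membrane, had 4714, 5382 and 5006 normalized counts in M1BP RNAi samples, against 2966, 2846 and 2589 in WT samples, a log2 difference of 0.85 (standard error 0.12, edgeR adjusted p = 7.88e-04). Tim17b was higher and Tim23 lower in all M1BP RNAi samples than in all WT samples, although both proteins sit in one complex, and with total library size in place of TMM the fold change of Tim23 turned positive. The difference between these 2 genes was not tested.

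CG11267, named Hsp10 after the co-chaperonin of the matrix, rose by 1.90 (standard error 0.24, edgeR adjusted p = 4.87e-04). The other called rises were CG12379 at 1.97 (edgeR adjusted p = 3.47e-04), CG9393 at 1.67 (edgeR adjusted p = 1.32e-04), CG11779 at 1.58 and 140up at 0.85. CG12118 had 1486, 2364 and 2523 normalized counts in M1BP RNAi samples, against 10013, 9484 and 8284 in WT samples, and fell (log2 fold change -2.12, standard error 0.22, edgeR adjusted p = 1.71e-04). Its role is not given in the sources used here.

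Of the 37 tested other import genes, all M1BP RNAi samples lay above all WT samples for 25 and below them for 3. Over all genes tested, these shares were 33.1% and 31.1%. Several core import genes outside the members lay apart between the groups without passing the threshold by edgeR. They were chosen for their known roles after their values were seen. mge, the fly Tom22 and the central receptor of the TOM complex, had 1981, 937 and 874 normalized counts in M1BP RNAi samples, against 320, 271 and 482 in WT samples (log2 fold change 1.81, adjusted p = 0.00389 by edgeR and 2.00e-07 by DESeq2). Hsc70-5, the Hsp70 that pulls precursors into the matrix, was at 1.64 on the log2 fold change scale (adjusted p = 0.00158 by edgeR and 6.34e-10 by DESeq2). Of the import motor, blp was at -0.05 and CG7394, named TIM14, at -0.13, both with overlapping groups.

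The samples of a group were not equal in these genes. In M1BP RNAi, sample 1 had the highest normalized count for 6 of the 8 detected TOM and TIM genes, and in WT, sample 3 had the highest for 5 of 8. M1BP RNAi sample 1 stood out most for Tim8, at 906 beside 553 and 550.1, and for mge among the other import genes. Among M1BP RNAi samples, sample 1 also had the most of the markers Lsp2 (fat body), osk (ovary) and Act88F (flight muscle). Lsp2 was at 5.97 CPM there, against 0.668 and 0.606 CPM in samples 2 and 3. Other markers were highest elsewhere, with neuronal elav in sample 2 and the gut marker alphaTry in sample 3. Whether RNA of other tissues added to the values of sample 1 was not tested. The largest coefficient of variation among the 8 genes was 30.6% for Tim8 in M1BP RNAi and 32.9% for Tim9a in WT.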

How the data were processed

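The authors deposited raw counts per gene for 6 adult libraries (TruSeq stranded, poly(A)), as reads over exons on dm6. Per the labels' processing notes, bcl2fastq 2.17.1.14, Subread, featureCounts and DESeq2 1.3.0 were used. The strand setting is not given in the sources used here. The deposited table of the authors' comparison (mean normalized counts, log2 fold changes, standard errors, p-values) served only for gene symbols. Samples were grouped by genotype label. Of 17494 genes, 17358 were in a reference annotation of release 6 and 17229 (99.3%) had the same start and end.

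Counts were tested with edgeR 4.0.16 in R 4.3.3 (TMM, filterByExpr, quasi-likelihood test, Benjamini-Hochberg adjustment over 9276 genes), and genes were called where the adjusted p did not exceed 0.001, which the study used. Python 3.11.15 with scipy 1.17.1 was used for exact permutation tests. Replicate numbers did not pair samples (correlations of deviations 0.05, 0.18 and -0.02), and no libraries were duplicates. Alternatives were DESeq2 1.42.0, RLE, total library size, removal of the 37 mtDNA genes before TMM, no filter, the replicate block, an adjusted p of at most 0.05, a 1.5-fold minimum and leaving out each sample.

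Named genes were all members, M1BP, called other import genes (values for the 5 largest rises and falls, with more given where stated), germline import paralogs, the 3 genes nearest to Tom40 and Tim23, and genes sharing exon bases with a member. CG7791, Tim17b, CG34132, Rpp14a, CG7950, the marker genes named singly and the core import genes that were not called were added after their values were seen. Members and lists were chosen with earlier results of these data known. Promoter and protein sequences were not analysed here.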

Additional observations from a re-analysis of the deposited data

How the results depend on the processing

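The call of Tom7 and its direction held under DESeq2, RLE, removal of mtDNA genes, total library size, no filter, the replicate block and the 1.5-fold minimum. Import members called higher numbered 1, but 2 with DESeq2 and with no filter (Tom20 added), 4 with total library size, 5 at an adjusted p of 0.05 and 0 to 1 with a sample left out. The share of all genes called higher was computed only for the main fit, at 11.0%, and at an adjusted p of 0.05, at 29.1%. Counts of genes called higher under the other settings have no such share beside them and cannot be judged against it. No alternative called a member lower by edgeR or DESeq2. Tim23 changed sign with total library size (log2 fold change 0.51). Other import genes called higher numbered 9, but 17 with DESeq2, 21 with total library size, 4 with the replicate block, 24 at 0.05 and 3 to 8 with a sample left out, and those called lower numbered 1, but 2 with DESeq2, 2 with no filter, 3 at 0.05 and 0 to 1 with a sample left out. All genes called numbered 1626, but 3040 with DESeq2, 2713 with total library size, 790 with the replicate block, 5209 at 0.05 and 602 to 1278 with a sample left out. The fall of M1BP missed the threshold with total library size (-0.61), the replicate block (-1.35) and any sample left out (-1.42 to -1.24). Except for the settings that change the threshold or the number of samples, the cause of these shifts was not tested. The replicate block, of numbers that did not pair the samples, kept Tom7 called (adjusted p = 4.47e-04). Log2 ratio differences with a sample left out were 0.93 to 1.48 for Tom7/Tom40, -1.15 to -0.84 for Tim23/Tom40, 1.15 to 1.60 for Tim9a/Tim10, 0.26 to 0.59 for Tom20/Tom40 and -0.12 to 0.19 for Tom70/Tom40. Counts per library were lowest for Tim9a (9 to 87) among the detected members.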
